A study of Homo sapiens with 6 samples.

Results

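The 10 genes described here encode secreted and membrane-bound matrix metalloproteinases (MMPs) and their tissue inhibitors (TIMPs): the collagenases MMP1 and MMP13, the stromelysins MMP3 and MMP10, the gelatinase MMP2, the membrane-type enzymes MMP14 and MMP15, and TIMP1, TIMP2 and TIMP3. They were found by symbol among the 23228 genes of the count tables. They were chosen with the difference between control and PELP1-KD cells already known, so the values that chose them are the counts of this same comparison. Their differences are therefore given as a description, and the calls among them are not read as evidence. Of the 10 genes, 7 passed the filter on low counts and belong to the 12796 genes tested, while MMP2, MMP10 and MMP13 did not pass it.

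Transcripts were sequenced from MDA-MB-231, a human cell line derived from a triple-negative breast cancer (TNBC), in 3 control replicates and 3 PELP1-KD replicates. Control cells carried a lentiviral shRNA with no target, PELP1-KD cells carried an shRNA against PELP1, and both had been selected with puromycin and grown in RPMI medium with 10% FBS. The knockdown rests on a single shRNA construct in a single cell line. The labels do not say whether the replicates were cultured or selected separately, so the spread between them may be technical.

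MMPs are zinc-dependent proteases that are made as inactive precursors and become active when the propeptide, whose cysteine holds the zinc, is removed. Collagenases cut the triple helix of fibrillar collagen, stromelysins degrade proteoglycans, laminin and fibronectin and activate other MMP precursors, and the membrane-type enzymes act at the cell surface, where MMP14 with TIMP2 activates the MMP2 precursor. TIMPs bind the active site of MMPs, and TIMP3, which is held in the extracellular matrix, also inhibits some ADAM proteases. In breast cancer, MMP1 and MMP14 are known for their part in the invasion of collagen-rich tissue.

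The catalytic zinc is held by 3 histidines in a short stretch that all MMPs share, and the coding bases of this stretch are shown because they show how alike the 7 MMP members are where they act. Each line gives 33 bases from the GENCODE release 29 transcript, 5′ to 3′, with the codons of the histidines in capitals.
MMP1: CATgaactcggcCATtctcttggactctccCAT
MMP13: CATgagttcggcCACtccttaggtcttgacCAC
MMP3: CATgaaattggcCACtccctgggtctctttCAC
MMP10: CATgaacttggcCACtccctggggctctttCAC
MMP2: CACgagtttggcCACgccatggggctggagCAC
MMP14: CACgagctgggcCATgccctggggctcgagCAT
MMP15: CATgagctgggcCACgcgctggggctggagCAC
The stretch differed from that of MMP1 at 8 bases in MMP10, 9 in MMP3, 10 in MMP14, 11 in MMP13, 12 in MMP15 and 15 in MMP2. All 7 reading frames also held the motif of the inhibitory cysteine in the propeptide. Over whole reading frames, MMP3 and MMP10 were the closest pair, with 84.9% identical bases, followed by MMP1 and MMP3 with 66.4%, MMP1 and MMP10 with 64.6%, and MMP14 and MMP15 with 62.5%. The close pair matters for counting, since reads that aligned to more than 1 place were counted on no gene. Their entries made up 32.5% to 32.9% of a library's counting output, which lists no unaligned reads. Whether a read was entered once or once per alignment is not given in the sources used here. The share of reads lost in this way is therefore not known. Of the 2047 windows of 50 bases in MMP3 transcripts, 59 (2.88%) were also found in MMP10. None of the windows of MMP13, MMP14, MMP15, TIMP1 and TIMP3 was found in another gene, and 2.68% of those of TIMP2 were found in CEP295NL on the same strand. On the opposite strand, 5.61% of the windows of TIMP2 were shared with AC022966.1 and 2.92% of those of MMP1 with WTAPP1. These 3 other genes were not analysed here. Their exons overlap those of the members on the chromosome, by 198 bases for CEP295NL, 367 for AC022966.1 and 150 for WTAPP1. A read from such an overlap can still align to a single place, so these shares do not measure the loss described above.

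Between 17304864 and 23132102 reads per library were counted on genes. PELP1 itself, the target of the knockdown, was lower in PELP1-KD cells by a log2 fold change (log2FC) of -0.97 (SE 0.055, adjusted p = 1.48e-11). Here and below, an adjusted p is that of edgeR's quasi-likelihood test, adjusted by Benjamini and Hochberg's method over all tested genes. PELP1 was at 8.7, 8.52 and 9.15 RPKM in control replicates 1, 2 and 3, against 4.34, 4.54 and 4.6 RPKM after PELP1-KD, so that the groups did not overlap. CPM is a count scaled to the library size, and RPKM is the CPM per kilobase of exon. All 6 markers of MDA-MB-231 and mesenchymal breast cancer cells were detected. Their summed level was 5770 to 5910 CPM in control and 4870 to 4970 CPM in PELP1-KD replicates. Of the 6, 5 were called lower, with a log2FC from -0.55 (CD44) to -0.13 (AXL). Over all tested genes, 24.2% were called lower and 22.7% higher, and nothing is read from the count of markers. The 6 luminal markers, of which MDA-MB-231 is known to have little, summed to 12.7 to 13.0 CPM in control and 12.8 to 13.8 CPM in PELP1-KD replicates. ESR1 and PGR had at most 2 counts in any library, while GATA3 had 114 to 190 and ERBB3 76 to 118, and FOXA1, with 11 to 26 counts in control and 0 to 7 in PELP1-KD libraries, was called lower (log2FC -2.37, SE 0.49, adjusted p = 5.1e-04). Of 7 fibroblast markers, DCN was at 0 in every library and 4, DCN among them, had at most 3 counts in any library, while the summed level was 19.4 to 24.2 CPM in control and 61.8 to 67.1 CPM in PELP1-KD replicates, carried by COL1A1 and PDGFRB. Leukocyte markers summed to at most 0.85 CPM, with PTPRC at 0, and endothelial markers to at most 3.48 CPM. Of the 2 endothelial markers tested, VWF was called higher (log2FC 2.56, SE 0.55, adjusted p = 6.99e-04). VWF had 1, 6 and 0 counts in control replicates 1, 2 and 3, against 12, 20 and 16 after PELP1-KD. It thus passed the filter on low counts only through the PELP1-KD group, and few counts carry its call. KDR was called lower (log2FC -1.03, SE 0.22, adjusted p = 5.53e-04). The part of the marker levels in the results below was not tested. In such bulk samples, fewer cells of a type and less RNA per cell cannot be told apart.

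MMP1, the interstitial collagenase and in control cells the most abundant of the 10 transcripts per length, showed the largest difference of the 7 tested members. Its level was 420.0, 400.0 and 395 RPKM in control replicates 1, 2 and 3 and 96.3, 94.7 and 96.4 RPKM in PELP1-KD replicates 1, 2 and 3. Each PELP1-KD replicate was far below each control, and replicates within a group lay close together. These levels rest on 13825 to 17896 counts per control library and 3697 to 4471 counts per PELP1-KD library. The log2FC of MMP1 was -2.08 (SE 0.031, n = 3 against 3), or 76.3% lower, and leaving out each replicate in turn gave -2.10 to -2.05. In control cells 99.7% of the tested genes had a lower RPKM than MMP1, and in PELP1-KD cells 96.6%. MMP1 lies on the minus strand at chr11:102789920-102798160 (GRCh38, GENCODE release 29), and 150 of its 1970 exon bases overlap WTAPP1 on the opposite strand. Whether the counting used strand is not given in the sources used here.

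MMP13, the other collagenase among the members, was all but undetected. It had 0 counts in all control libraries and in PELP1-KD replicates 1 and 3, and 1 count in PELP1-KD replicate 2. A count of 3, taken as the floor of detection, would correspond to at most 0.0612 RPKM in a control and 0.0552 RPKM in a PELP1-KD library. No fold change is given, since both groups were at or under the floor.

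Of the stromelysins, MMP3 was measured at a low level and MMP10 was not detected above the floor. MMP3 was at 4.04, 4.08 and 4.15 RPKM in control replicates 1, 2 and 3, against 1.88, 2.33 and 2.07 RPKM after PELP1-KD. The groups did not overlap, and the PELP1-KD replicates were the more widely spread. The log2FC of MMP3 was -0.96 (SE 0.12), or 48.8% lower, with 140 to 190 counts per control and 75 to 102 per PELP1-KD library. Its SE was larger than that of any other tested member, and leaving out a replicate moved the log2FC between -1.04 and -0.89. MMP10 had 2 counts in control replicate 1, 1 count in PELP1-KD replicate 1 and 0 in the other libraries, so that a change in MMP10 was not detectable at this depth.

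MMP2, the gelatinase that MMP14 activates, had 1 to 2 counts in each control library and 0, 2 and 6 in PELP1-KD libraries 1, 2 and 3. These counts lie around the floor, which was at most 0.0351 RPKM in a control library, and do not separate the groups. The gelatinase that MMP14 and TIMP2 activate was thus hardly detected in these cells in either group.

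The membrane-type enzymes, in contrast, were both measured. MMP14 was at 111, 114 and 115 RPKM in control replicates 1, 2 and 3, against 82.5, 85.7 and 81.5 RPKM after PELP1-KD. All PELP1-KD values were below all control values. The log2FC of MMP14 was -0.44 (SE 0.03), or 26.5% lower. Its paralog MMP15 was much less abundant, at 3.02, 3.25 and 3.29 RPKM in control and 3.04, 3.26 and 2.93 RPKM in PELP1-KD replicates. The groups of MMP15 overlapped, and the log2FC was -0.05 (SE 0.083), with 2 SE to either side spanning -0.22 to 0.11. MMP14 lies at chr14:22836557-22849027 and MMP15 at chr16:58025566-58046901, both on the plus strand.

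Among the inhibitors, TIMP3 showed the second largest difference of the 7 tested members. TIMP3 was at 9.96, 9.36 and 9.65 RPKM in control replicates 1, 2 and 3, against 3.37, 3.36 and 3.27 RPKM after PELP1-KD. The groups were well apart, and the PELP1-KD replicates were nearly equal. Its log2FC was -1.53 (SE 0.063), or 65.5% lower, from 775 to 979 counts per control and 302 to 354 per PELP1-KD library. TIMP3 lies at chr22:32801701-32863043 on the plus strand, within an intron of the neuronal gene SYN3, and SYN3 had 0 counts in every library.

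TIMP1 lies at chrX:47582313-47586789 inside SYN1, which had 0 counts in every library. TIMP1 was at 75.6, 78.0 and 76.0 RPKM in control replicates 1, 2 and 3, against 76.2, 78.9 and 75.9 RPKM after PELP1-KD. The groups overlapped almost entirely. The log2FC of TIMP1 was 0.01 (SE 0.039), with 2 SE to either side spanning -0.07 to 0.09, and its sign turned when a replicate was left out (-0.01 to 0.02). TIMP2, which serves both as an inhibitor and as the partner of MMP14, was at 80.3, 79.0 and 80.1 RPKM in the controls and at 72.2, 74.9 and 71.7 RPKM in the PELP1-KD replicates. The PELP1-KD replicates were all below the controls, by a smaller margin than for MMP14. The log2FC of TIMP2 was -0.13 (SE 0.029), or 8.57% lower, and -0.08 with library totals alone in place of TMM scaling.

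Counted over the members, 5 of the 7 tested (MMP1, MMP3, MMP14, TIMP2 and TIMP3) were called lower at an adjusted p-value below 0.05, and the same 5 had all PELP1-KD replicates below all controls. None was called higher by edgeR, DESeq2 or limma voom, none had an unadjusted p-value below 0.05 on the higher side with any of them, and none had all PELP1-KD replicates above the controls. Over all 12796 tested genes, 24.2% were called lower and 22.7% higher, and the PELP1-KD replicates lay all below the controls in 28.0% and all above in 27.0%. With library totals alone the split over all genes was 2418 lower and 3817 higher in place of 3103 and 2904. As the members were selected on this comparison, nothing is read from their counts against these shares.

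**Figure D1:**
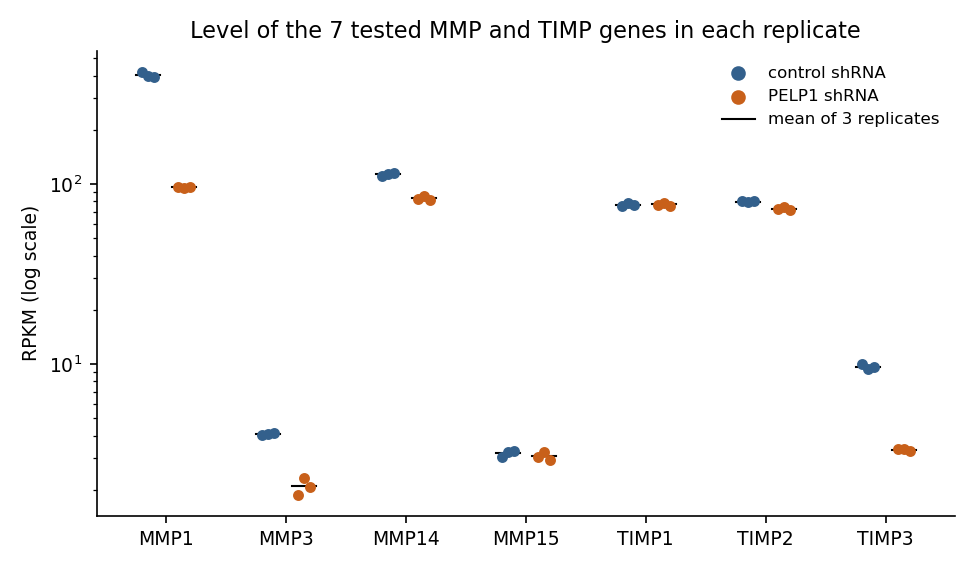
RPKM (log axis) of the 7 tested MMP and TIMP genes in each of 3 control and 3 PELP1-KD replicates (points), with the mean of 3 replicates as a line. MMP1, MMP3, MMP14, TIMP2 and TIMP3 have all PELP1-KD replicates below all controls, with MMP1 at 395 to 420.0 RPKM in control and 94.7 to 96.4 RPKM in PELP1-KD cells, while MMP15 and TIMP1 overlap.

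Per length, the order of the levels in control cells was MMP1, MMP14, TIMP2, TIMP1, TIMP3, MMP3 and MMP15, and no neighbours in this order overlapped between replicates. In PELP1-KD cells the order was MMP1, MMP14, TIMP1, TIMP2, TIMP3, MMP15 and MMP3, again without overlap between neighbours. On this scale TIMP1 and TIMP2, and MMP3 and MMP15, had exchanged places. With the longest coding transcript as gene length, TIMP2 was above TIMP1 in both groups. TIMP2 then made up 51.2% of the summed TIMPs against 44.8% for TIMP1 in control, and 50.2% against 48.3% in PELP1-KD cells. By CPM, MMP15 was above MMP3 in control cells as well. The mean levels of the leading genes in PELP1-KD cells lay within a narrow range, from 73.0 ± 1.73 RPKM (SD, n = 3) for TIMP2 to 95.8 ± 0.93 RPKM for MMP1. Their order depended on the gene length used: with the longest coding transcript in place of all exon bases, TIMP2 ranked 1, TIMP1 2, MMP14 3 and MMP1 4. In control cells, by contrast, MMP1 ranked 1 with either length, at a mean of 405 ± 13.2 RPKM against 113 ± 2.20 RPKM for MMP14.

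The balance of protease and inhibitor transcripts differed between the groups, mainly in MMP1. The summed RPKM of the 7 MMP members was 538, 521 and 518 in the controls and 184, 186 and 183 after PELP1-KD. MMP2, MMP10 and MMP13 added next to nothing to these sums. The summed RPKM of the 3 TIMPs was 166 in each control and 152, 157 and 151 after PELP1-KD. Their ratio was 3.24, 3.13 and 3.12 in control and 1.21, 1.18 and 1.21 in PELP1-KD cells. All PELP1-KD ratios were below all control ratios, with means of 3.17 ± 0.0666 and 1.20 ± 0.0161 (SD, n = 3). With the longest coding transcript the mean ratio was 2.28 in control and 0.895 in PELP1-KD cells, so that the summed inhibitors exceeded the summed MMPs in PELP1-KD cells with that length only. Such sums are of transcripts, and protein or active enzyme was not measured here.

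MMP1 made up 77.1% ± 0.908 of the summed MMP RPKM in control and 52.0% ± 0.963 in PELP1-KD cells (SD, n = 3). The share of MMP14 was 21.5% ± 0.851 in control and 45.2% ± 0.803 in PELP1-KD cells. MMP1 thus made up most of the set in control cells, and its share was smaller and that of MMP14 larger in PELP1-KD cells. MMP1 exceeded MMP14 by 3.58-fold ± 0.187 in control and by 1.15-fold ± 0.0414 in PELP1-KD cells, but which of the pair led in PELP1-KD cells depended on the scale. There the ratio of MMP1 to MMP14 was 0.963 with the longest coding transcript and 0.508 by CPM, against 2.99 and 1.58 in control cells. Within the TIMPs, TIMP3 went from 5.82% ± 0.187 of the summed RPKM in control to 2.17% ± 0.0407 in PELP1-KD cells, and TIMP1 from 46.1% ± 0.685 to 50.2% ± 0.0494.

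**Figure D2:**
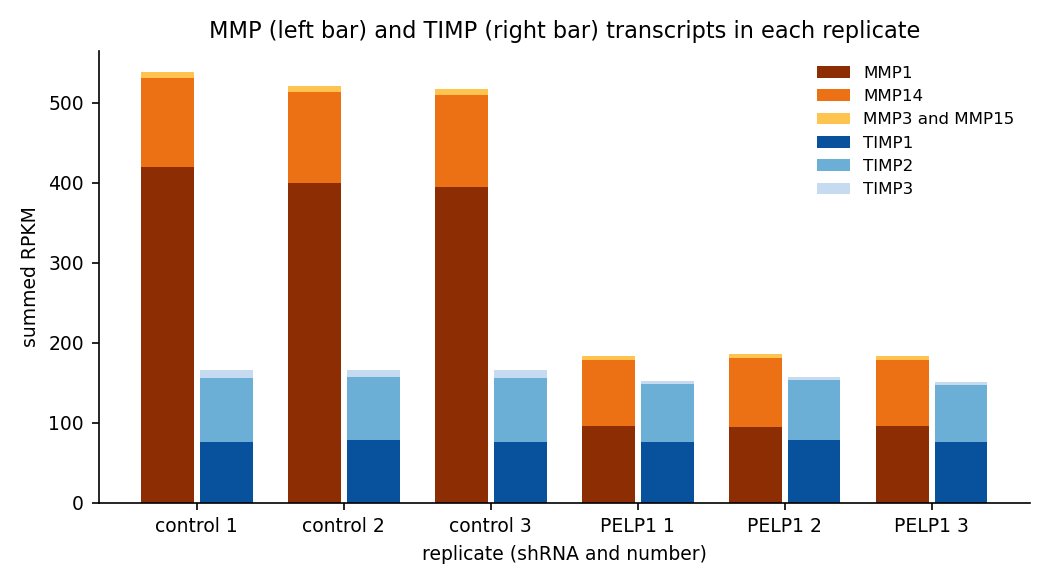
Summed RPKM of MMP transcripts (left bar of each pair) and TIMP transcripts (right bar) in each replicate, divided by gene. The MMP bar reaches 518 to 538 RPKM in control and 183 to 186 RPKM in PELP1-KD replicates, with most of the difference in the MMP1 segment, and the TIMP bar stays between 151 and 166 RPKM.

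MMP1, MMP3, MMP10 and MMP13 belong to a cluster of 9 MMP genes that spans 435 kb on chromosome 11, and this allowed the members to be set beside their neighbours. Of the 9 genes, 3 were tested (MMP8, MMP1 and MMP3), and the other 6 had at most 3 counts in any library. MMP8, which encodes the neutrophil collagenase, lies 78.1 kb from MMP1 and is not among the 10 genes. It was at 0.55, 0.422 and 0.623 RPKM in control replicates 1, 2 and 3, against 0.925, 1.19 and 1.09 RPKM after PELP1-KD. All PELP1-KD values were above all control values, opposite in direction to MMP1 and MMP3 within the same cluster. The log2FC of MMP8 was 1.03 (SE 0.18, adjusted p = 1.07e-04), and leaving out a replicate gave 0.86 to 1.16. The level of MMP8 was low in both groups, with 32 to 38 counts per control and 62 to 88 per PELP1-KD library.

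Of 6 genes that flank the cluster, 4 were lower in PELP1-KD cells by edgeR's quasi-likelihood test and none was higher. The shares over all tested genes were 24.2% lower and 22.7% higher, and the flanking genes were listed with earlier results known. None of the 6 had an unadjusted p-value below 0.05 on the higher side with edgeR, DESeq2 or limma voom. BIRC3, an inhibitor of apoptosis that NF-κB induces, was at 21.6 to 24.5 RPKM in control and 14.3 to 15.5 RPKM in PELP1-KD replicates and fell, with a log2FC of -0.61 (SE 0.046, adjusted p = 1.08e-09). TMEM123 followed with a log2FC of -0.34 (SE 0.036, adjusted p = 1.26e-07), BIRC2 with -0.26 (SE 0.039, adjusted p = 1.08e-05) and YAP1 with -0.18 (SE 0.038, adjusted p = 4.63e-04). These 4 genes lie on the same side of the cluster. On the other side, DCUN1D5 had a log2FC of 0.04 (SE 0.038, adjusted p = 0.411) and DYNC2H1 one of -0.24 (SE 0.12, adjusted p = 0.118). None of the flanking genes had a log2FC as far from 0 as MMP1 or MMP3.

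**Figure D3:**
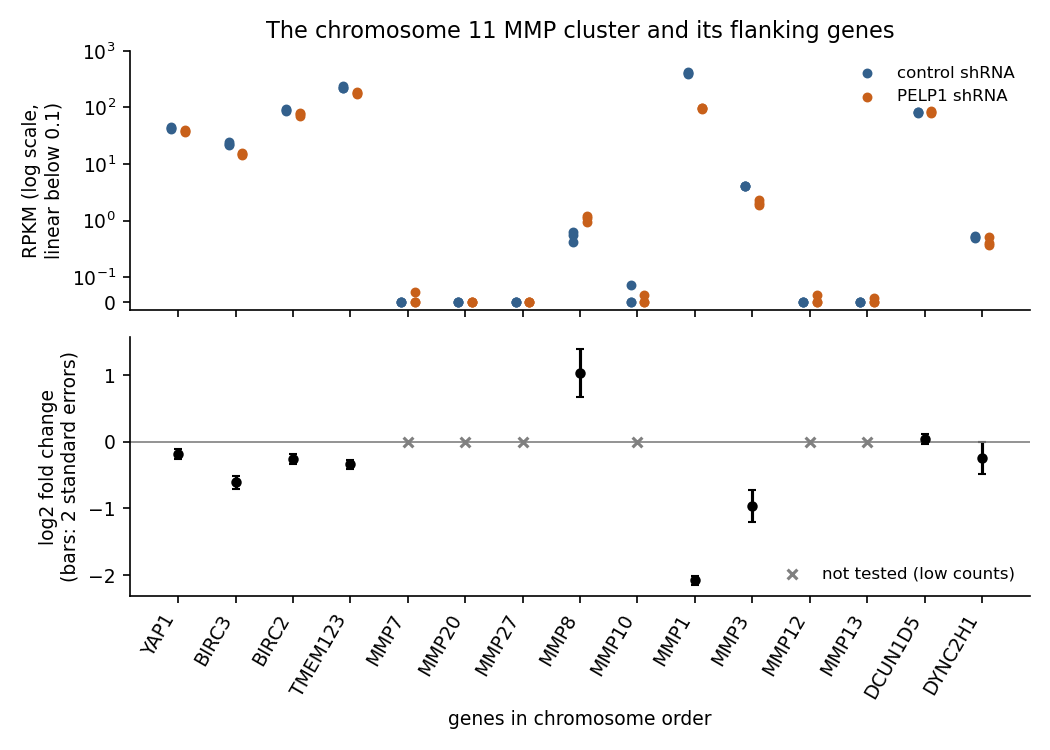
RPKM per replicate (top, log axis that is linear below 0.1) and log2FC with 2 SE (bottom) of the MMP genes of the chromosome 11 cluster and the genes flanking it, in chromosome order. MMP1 (-2.08) and MMP3 (-0.96) lie below 0 and MMP8 (1.03) above it, crosses mark the 6 cluster genes with too few counts to test, and the flanking genes lie between -0.61 and 0.04.

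For 5 of the members (MMP10, MMP14, MMP15, TIMP1 and TIMP3) RefSeq promoters on GRCh38.p14 were at hand, covering 250 bases before to 50 after the start, and MMP1, MMP2, MMP3, MMP13 and TIMP2 were not among them. The 120 bases before the annotated transcript start are shown for MMP14 and TIMP3, which were lower in PELP1-KD cells, and for MMP10, which was near 0, with a TATA box in capitals.
MMP14, chr14:22836437-22836556, plus strand: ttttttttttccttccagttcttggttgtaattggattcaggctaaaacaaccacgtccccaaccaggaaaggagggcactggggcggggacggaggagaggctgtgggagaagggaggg
TIMP3, chr22:32801581-32801700, plus strand: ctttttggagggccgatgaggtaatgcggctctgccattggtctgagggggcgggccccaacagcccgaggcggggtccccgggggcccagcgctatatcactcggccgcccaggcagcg
MMP10, chr11:102780629-102780748, minus strand: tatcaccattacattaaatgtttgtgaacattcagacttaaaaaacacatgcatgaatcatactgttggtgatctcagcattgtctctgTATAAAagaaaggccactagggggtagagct
The promoters differed in composition, with a G+C content of 36.3% in MMP10, 55.0% in MMP14, 65.0% in TIMP1, 72.7% in TIMP3 and 75.3% in MMP15. Each promoter was searched on both strands for the sites of AP-1 and ETS factors and for the TATA box, none of which contains another. The AP-1 site, spelled TGAGTCA, was in none of the 5 promoters and in 4.95% of all 35116 promoters of the same length. The ETS site, spelled AGGAAG, was in TIMP1 (87 bases before the start) and in 33.6% of all promoters. The TATA box, spelled TATAAA, was in MMP10 (31 bases before the start) and in 11.5% of all promoters. No match says only that these letters are not in this window.

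Among the other MMP genes, those that passed the test were higher in PELP1-KD cells. The remaining MMP genes and TIMP4 make up a list of 17 genes, of which 7 were tested. Of these, 4 rose, none fell past the threshold and 3 did not pass the test. Over all tested genes, 22.7% were called higher and 24.2% lower. The median log2FC of the list was 0.57, against 0.00 over all tested genes. Since the members were taken out of this family with the comparison known, nothing is read from the direction of the rest. MMP11 (stromelysin 3) rose from 0.441 ± 0.0369 to 0.794 ± 0.0777 RPKM, with a log2FC of 0.83 (SE 0.16, adjusted p = 2.29e-04). MMP19 rose from 0.909 ± 0.174 to 1.42 ± 0.0685 RPKM, with a log2FC of 0.65 (SE 0.14, adjusted p = 5.44e-04). The other genes that rose were MMP8, given above, and MMP24, a membrane-type enzyme with a log2FC of 0.57 (SE 0.14, adjusted p = 2.21e-03), which was named after its values were seen. All 4 reached at most 1.48 RPKM in any library, far under MMP1 and MMP14.

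On the lower side of this list, edgeR and limma voom each gave 2 genes with an unadjusted p-value below 0.05 and DESeq2 none. These were not called: MMP16 had a log2FC of -0.57 (SE 0.24, adjusted p = 0.0514) and MMP17 one of -0.63 (SE 0.28, adjusted p = 0.073), both named after their values were seen. MMP16 passed the threshold without control replicate 2 (adjusted p = 0.0296) and without PELP1-KD replicate 3 (adjusted p = 0.0424). TIMP4 was at 0.436 ± 0.133 RPKM in control and 0.317 ± 0.13 RPKM in PELP1-KD cells, and its log2FC was -0.47 (SE 0.37, adjusted p = 0.302). MMP9, the other gelatinase, was not tested, with 0.114 ± 0.0327 RPKM in control and 0.22 ± 0.0878 RPKM in PELP1-KD cells.

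**Figure D4:**
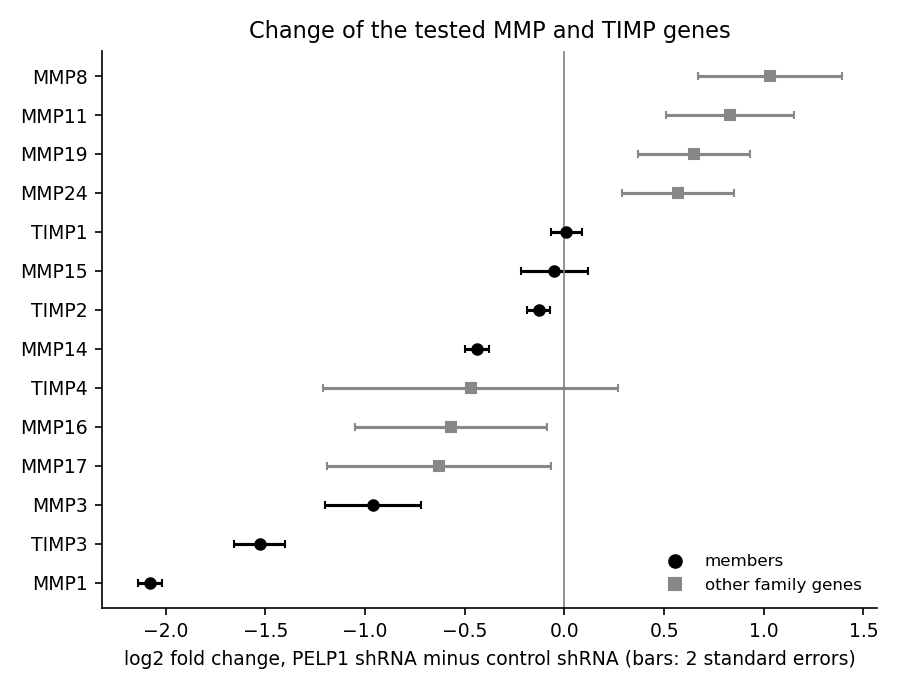
Log2FC (PELP1-KD minus control) of the 14 tested MMP and TIMP genes, with bars of 2 SE. The members (black circles) run from -2.08 for MMP1 to 0.01 for TIMP1, and of the other family genes (grey squares) MMP8, MMP11, MMP19 and MMP24 lie between 0.57 and 1.03.

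MMP precursors are activated and held in check by other proteins, and a list of 22 such genes was tested next. Of the 13 tested, 3 rose, 5 fell and 5 did not pass the test, with a median log2FC of -0.01. By comparison, 22.7% of all tested genes were called higher and 24.2% lower, and nothing is read from the counts of this list. ITGB3, the integrin chain that with ITGAV can hold MMP2 at the cell surface, rose from 0.905 ± 0.104 to 3.48 ± 0.144 RPKM. Its log2FC was 1.94 (SE 0.11, adjusted p = 8.61e-12). ITGAV itself had a log2FC of -0.01 (SE 0.044, adjusted p = 0.911), and MMP2 was hardly detected in either group. FURIN, the convertase that activates MMP14, rose from 32.6 ± 0.117 to 45.7 ± 1.79 RPKM, with a log2FC of 0.49 (SE 0.036, adjusted p = 8.81e-10). FURIN and its substrate MMP14 thus differed in opposite directions. TFPI2, a matrix-bound inhibitor of serine proteases, rose by a log2FC of 0.22 (SE 0.049, adjusted p = 9.82e-04).

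CD44, the hyaluronan receptor that binds MMP14 at the cell surface, fell from 121 ± 3.10 to 82.8 ± 0.147 RPKM, with a log2FC of -0.55 (SE 0.026, adjusted p = 8.62e-13). CD44 is also in the list of MDA-MB-231 markers. PLAT, the tissue plasminogen activator, fell by 0.41 on the log2 scale (SE 0.044, adjusted p = 1.89e-07). PCSK6, a convertase at 0.379 ± 0.0446 RPKM in control cells, fell by 0.47 (SE 0.14, adjusted p = 0.0104), a call lost without control replicate 3 (adjusted p = 0.0595) or PELP1-KD replicate 1 (adjusted p = 0.0506). The remaining genes that fell were PLAU and BSG, the latter known as an inducer of MMPs. RECK, a membrane-anchored inhibitor of MMPs, had a log2FC of 0.13 (SE 0.083, adjusted p = 0.205).

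The related ADAM and ADAMTS metalloproteinases, of which TIMP3 inhibits some, changed in both directions. Of 30 genes, 16 were tested, 4 rose and 6 fell, with a median log2FC of -0.20. Over all tested genes, 22.7% were called higher and 24.2% lower, and nothing is read from the counts of this list. ADAMTS6, at 5.10 ± 0.17 RPKM in control and 11.6 to 12.2 RPKM in PELP1-KD cells, rose with a log2FC of 1.23 (SE 0.048, adjusted p = 3.37e-14). ADAM19 rose by a log2FC of 0.59 (SE 0.043, adjusted p = 4.98e-10) and ADAMTS12 by 0.47 (SE 0.046, adjusted p = 4.55e-08). These 3 and ADAMTS14 were the genes of the list that rose. ADAMTS1, a versican-cleaving protease, fell from 1.67 ± 0.128 to 0.82 ± 0.0742 RPKM, with a log2FC of -1.01 (SE 0.11, adjusted p = 1.43e-07). ADAM8 fell from 15.4 ± 0.726 to 7.99 ± 0.397 RPKM, with a log2FC of -0.95 (SE 0.054, adjusted p = 1.51e-11). ADAM17, the sheddase of TNF and a known target of TIMP3, fell by 0.56 on the log2 scale (SE 0.048, adjusted p = 7.8e-09), in the same direction as its inhibitor.

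Most of the tested substrate genes of the collagenases, stromelysins and gelatinases were higher in PELP1-KD cells. Of 20 substrate genes, 13 were tested, 10 rose, 2 fell and 1 did not pass the test, with a median log2FC of 0.63. Over all tested genes, 22.7% were called higher and 24.2% lower. The list was written with earlier results of these data known, so nothing is read from its count. VCAN, which encodes the proteoglycan versican, rose from 0.103 ± 0.00336 to 0.603 ± 0.0443 RPKM, with a log2FC of 2.54 (SE 0.14, adjusted p = 1.44e-11). COL1A1, a chain of the type I collagen that MMP1 cuts, rose from 0.595 ± 0.11 to 1.84 ± 0.156 RPKM, with a log2FC of 1.61 (SE 0.11, adjusted p = 3.23e-10). COL1A1 is also 1 of the fibroblast markers given above, and its partner COL1A2 had too few counts to test. SPARC, a collagen-binding glycoprotein, rose from 1.04 ± 0.0866 to 3.06 ± 0.219 RPKM, with a log2FC of 1.57 (SE 0.1, adjusted p = 1.74e-10).

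Also among the substrates that rose were 5 further collagen chains (COL4A1, COL4A2, COL5A1, COL5A2 and COL7A1), FN1 and TNC, so that the list held basement membrane as well as interstitial proteins. HSPG2, which encodes perlecan, was among the genes that fell, with a log2FC of -0.27 (SE 0.058, adjusted p = 5.61e-04). F2R, the receptor PAR1 that MMP1 cleaves on cancer cells, was at 23.1 ± 0.694 RPKM in control and 23.9 ± 0.944 RPKM in PELP1-KD cells. Its log2FC was 0.05 (SE 0.044, adjusted p = 0.367).

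AP-1, ETS and RUNX factors bind the promoters of several MMP genes, and 17 of the 18 listed were tested. This list, too, was written with earlier results of these data known. Over all tested genes, 22.7% were called higher and 24.2% lower. In this list all 17 passed the threshold, 10 higher and 7 lower, with a median log2FC of 0.14 and values from -0.67 (FOS) to 0.57 (ATF3). With DESeq2, 8 were higher and 6 lower, and when a replicate was left out 7 to 9 were higher and 6 to 7 lower, the calls lost being those of FOS, ELF3, JUND and ETS2 (JUND and ETS2 named after their values were seen). FOSL1, the AP-1 subunit FRA1 and the most abundant of the list per length, fell from 155 ± 8.14 to 107 ± 1.90 RPKM, with a log2FC of -0.53 (SE 0.037, adjusted p = 4.03e-10). FOSL1 is also in the list of MDA-MB-231 markers. ETV5 fell by 0.37 on the log2 scale (SE 0.049, adjusted p = 3.09e-06). FOS, at 0.431 ± 0.0623 RPKM in control cells, fell by 0.67 (SE 0.25, adjusted p = 0.0361), a call lost with DESeq2 (adjusted p = 0.155) and without control replicate 1 or 2 or PELP1-KD replicate 1 or 2 (adjusted p = 0.0619 to 0.153).

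Of the factors that rose, ATF3, a stress-induced partner of JUN, had a log2FC of 0.57 (SE 0.098, adjusted p = 7.29e-05), and JUNB one of 0.43 (SE 0.084, adjusted p = 2.92e-04). ELF3, an epithelial ETS factor at 0.278 ± 0.0502 RPKM in control cells, had a log2FC of 0.51 (SE 0.18, adjusted p = 0.0278). The call of ELF3 was lost with DESeq2 (adjusted p = 0.0993) and without control replicate 1 or 3 or PELP1-KD replicate 1 or 2 (adjusted p = 0.0645 to 0.103). FOSL1 and JUNB, both AP-1 subunits, thus differed in opposite directions.

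**Figure D5:**
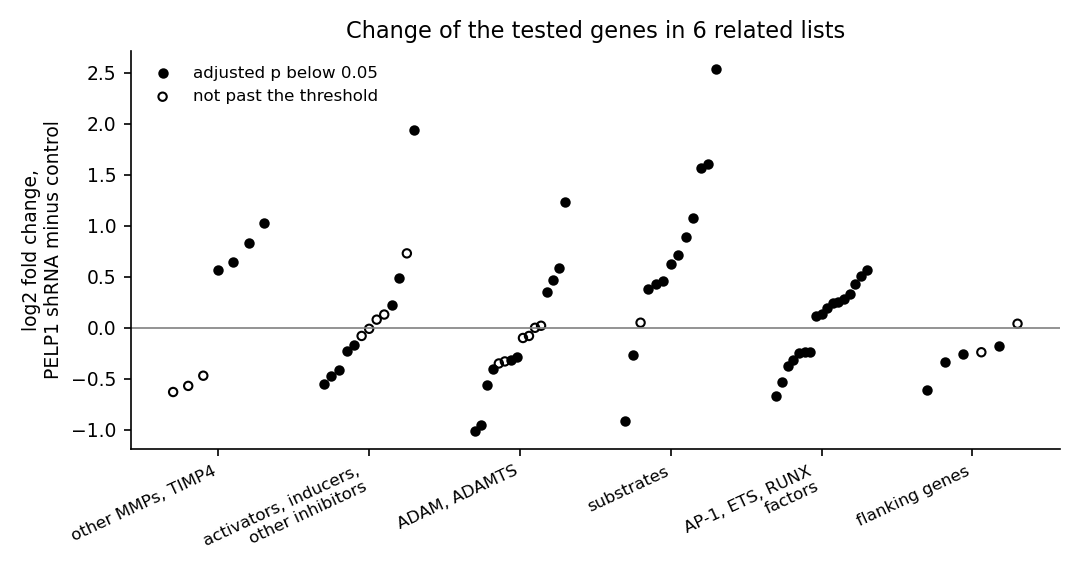
Log2FC (PELP1-KD minus control) of the tested genes in 6 lists around the MMPs and TIMPs, sorted within each list. Over all tested genes, 22.7% were called higher and 24.2% lower. Filled points have an adjusted p-value below 0.05: 4 of 7 other MMPs and TIMP4, 8 of 13 activators and inhibitors, 10 of 16 ADAM and ADAMTS genes, 12 of 13 substrates, 17 of 17 AP-1, ETS and RUNX factors and 4 of 6 flanking genes.

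Across the 6 libraries, the genes whose pattern was most like that of MMP1, by the Euclidean distance between log2 CPM values centred on each gene's mean, were HTRA1 (distance 0.301), IGFBP1 (0.32), LPAR1 (0.348), MAL2 (0.414) and WNT5A (0.462). HTRA1, a secreted serine protease, was nearest, with 4.18, 3.15 and 3.68 RPKM in the controls and 0.878, 0.843 and 0.969 RPKM in the PELP1-KD replicates. IGFBP1, an IGF-binding protein, went from 10.4 ± 0.529 to 2.82 ± 0.115 RPKM, and LPAR1, a receptor for lysophosphatidic acid, from 6.57 ± 0.619 to 1.32 ± 0.13 RPKM. All 5 shared with MMP1 a large difference between the groups, with a log2FC from -3.13 (WNT5A) to -1.89 (IGFBP1). MAL2 and WNT5A had few counts, at most 55 and 15 in a library. WNT5A had 2, 1 and 1 counts in PELP1-KD replicates 1, 2 and 3, under the floor of 3 counts, and its SE was 0.55. The prior count of 2 in log2 CPM shrinks differences at such counts. WNT5A may therefore rank nearer to MMP1 than its fold change would place it. The genes nearest to TIMP1, the member with the highest log2FC, were POLDIP2 (distance 0.0205), TMEM184B (0.0265), SF1 (0.0313), PHB (0.0316) and ATP5G3 (0.0331), all of them, like TIMP1, at nearly equal levels in the 6 libraries.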

How the data were processed

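RNA-seq counts of 3 control and 3 PELP1-KD replicates of MDA-MB-231 were used. The authors deposited whole-number counts per gene symbol without normalization. The methods and the labels give stranded mRNA libraries and single reads of 50 bases, and the submitters' processing notes name bcl2fastq, TopHat2, SAMtools, HTSeq and hg19. Tool versions, the annotation and the strand setting are not given in the sources used here. Groups and replicate numbers came from the labels.

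Genes were kept by edgeR's filterByExpr with a minimum of 10 counts, and libraries were scaled by TMM. The test was edgeR's quasi-likelihood test (edgeR 4.0.16, R 4.3.3) between the 2 groups, adjusted by Benjamini and Hochberg's method over 12796 genes at a threshold of 0.05. The SE was obtained from the log2FC and the F statistic. RPKM used TMM-scaled library sizes and exon lengths from GENCODE release 29 on GRCh38, a build other than that of the counts, so coordinates come from the annotation. A floor of 3 counts equals 0.13 to 0.173 CPM and covers counting error alone, since without molecular identifiers a read is not an independent molecule. Log2 CPM used a prior count of 2. Replicates of a group differed by more than sampling noise, the chi-square per degree of freedom being 1.46 to 4.06. The scripts were tested on simulated data.

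The members and the gene lists were chosen with earlier results of these data known, and the lists were written from general knowledge. Genes named are all members, PELP1, the chromosome 11 MMP cluster, the 3 called genes with the largest log2FC in each direction of each list, list genes needed as background, and the 5 genes nearest to MMP1 and to the member with the highest log2FC. Alternatives were RLE size factors, library totals, DESeq2 1.42.0, voom in limma 3.58.1, other filters on low counts, leaving out each replicate, a block for the replicate number, CPM in place of RPKM and, chosen after seeing the data, the length of the longest coding transcript. Zinc-site bases are from the longest reading frame of GENCODE transcripts. Promoter sequences are from RefSeq. The values of 1 called gene of the substrate list are not reported here.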

Additional observations from a re-analysis of the deposited data

How the results depend on the processing

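The 5 members called lower were 5 under all 13 other settings of the count test, and the number called higher was 0 in each. All settings drew on the libraries that the members were selected on, so this is no test of the difference. With library totals alone the log2FC was -2.03 for MMP1, -0.39 for MMP14, 0.06 for TIMP1, -0.08 for TIMP2 and -1.48 for TIMP3, and the median over all tested genes was 0.051 in place of 0.0014. Leaving out each replicate gave -1.56 to -1.51 for TIMP3, -0.46 to -0.43 for MMP14, -0.15 to -0.12 for TIMP2 and -0.10 to -0.02 for MMP15. Among the other MMPs and TIMP4, the number called lower was 0, but 1 with at least 10 counts in every replicate (adjusted p = 0.0427), 1 with the replicate block (adjusted p = 0.038) and 0 to 1 when a replicate was left out, the gene being MMP16 each time. Of the AP-1, ETS and RUNX factors, 8 were higher and 6 lower with DESeq2 and, without PELP1 shRNA replicate 2, 7 higher and 6 lower, in place of 10 and 7. The replicate numbers did not pair the libraries, with correlations of same-numbered deviations of 0.039, 0.065 and -0.078, and the replicate block gave 3335 genes lower and 3140 higher. The ratio of summed MMPs to summed TIMPs was 2.17 in control and 1.06 in PELP1-KD cells by CPM, and 2.28 and 0.895 with the longest coding transcript, because MMP1 has the same length either way while the TIMP1, TIMP2 and MMP14 lengths shorten. By CPM, MMP15 ranked above MMP3 in control cells, and TIMP2 ranked 1 and MMP1 3 in PELP1-KD cells. Depth limits MMP2, MMP10 and MMP13, which stayed at 0 to 6 counts.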
